A study of Homo sapiens with 2 samples.

Results

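The genes described here are nucleolar factors that assemble ribosomes, targeted within a genome-wide CRISPR/Cas9 knockout screen. They are all genes of the count table whose symbol is UTP, NOP, NOC or RRP followed by a digit, together with NOL6, NOL9, NOL10, NOL11, FBL, NCL, WDR12, WDR43, PES1, BOP1, DKC1, NHP2, GAR1, IMP3, IMP4, MPHOSPH10, TSR1, TSR2, BYSL and EMG1. The rule gave 47 of 19112 genes, with 167 of 74336 listed single guide RNAs (sgRNAs), and used no measured value. The cells were A673, a human Ewing sarcoma line, carrying tdTomato fused to the endogenous EWSR1::FLI1 gene, an EGFP control and Cas9. The tdTomato knock-in was a single clone. Reporter cells received the Brunello knockout library of lentiviral sgRNAs at a multiplicity of infection of 0.3, then 12 days of puromycin at 2 μg/ml and 3 days without it. The screen asked which knockouts lower the fusion protein, and cells with low tdTomato and high EGFP (tdTomato-low EGFP-high) were isolated by a gate on a cell sorter and expanded before sequencing. One library is of unsorted cells (10483144 reads) and the other of sorted cells (1455322 reads), with no replicate of either. Both populations carried the same sgRNA pool, reporter, EGFP and Cas9.

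Ribosomal RNA (rRNA) is transcribed by RNA polymerase I in the nucleolus as a long precursor, which is cut, chemically modified and folded onto ribosomal proteins. The small subunit processome, built around the U3 small nucleolar RNA, acts on the 18S part, and other factors, the PeBoW complex among them, act on the part that becomes the large subunit. Box C/D and box H/ACA small nucleolar ribonucleoproteins (snoRNPs) guide methylation and pseudouridylation of rRNA. Most of these proteins are needed by dividing cells, so in pooled knockout screens their sgRNAs are typically depleted with time in culture.

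The sgRNAs that carry the results below are printed first, 5′ to 3′, with the 10 bases nearest the PAM, the seed of Cas9 targeting, in capitals. The box C/D set is shown because each gene of it had fewer than 4 listed sgRNAs. The box H/ACA set is shown because every gene of it had an sgRNA that rose and at least 1 with no sorted read.
FBL sgRNA 1: ccagtcggggAAGAATGTGA
FBL sgRNA 2: accaacgatgTCAGAGACAT
NOP56 sgRNA 1: agagaagcaaTCGATTCGTG
NOP56 sgRNA 2: cttaccttcaGACACGGCGT
NOP56 sgRNA 3: ttacctgacaCGCATAGAGA
NOP58 sgRNA 1: gcacggcttaTTGCTCATGC
NOP58 sgRNA 2: ataaatgagaCCATACTTAG
DKC1 sgRNA 1: catcatgcatTGTCACCATG
DKC1 sgRNA 3: cacacataatGTCCGAATGT
DKC1 sgRNA 4: tcgatatgagGACGGCATTG
GAR1 sgRNA 1: ggtcgtggagGCTTTAATCG
GAR1 sgRNA 2: agcagcaaccACTTCCGAGG
GAR1 sgRNA 3: ggcctttgttAAAGCCTCCG
GAR1 sgRNA 4: atacagactaCACGTTCTGG
NHP2 sgRNA 1: tcaggcggagGCGTGTTCCG
NHP2 sgRNA 2: ccatctcccaGTCATGTGTG
NHP2 sgRNA 3: tgtagagcttCCGCGTGAGG
NHP2 sgRNA 4: caaatgcatcAAGAAAGGTG
NOP10 sgRNA 1: tcgagagtatTTGTCATCTG
NOP10 sgRNA 2: gagcagaaatTTGACCCGAT
NOP10 sgRNA 3: ctggggagaaCCGAGCAGGA
NOP10 sgRNA 4: agatcgagtcTATACGCTGA

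A further 6 sgRNAs are shown because they were read only after the gate, with 0 unsorted reads and 6 to 48 sorted reads.
NOP2 sgRNA 1: gaagatggtaTGGTGAACCA
BYSL sgRNA 1: ggttgagacaGTCATGTCAG
RRP36 sgRNA 2: cctgacagatCATCAAAGCG
RRP15 sgRNA 3: gcgtgataagAGGCTGGAGT
WDR12 sgRNA 2: aatgcccttgGACAAACACA
NOC3L sgRNA 3: aaattacgaaGTTAGGCCAG

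The last set holds the sgRNA with the largest finite odds ratio of 3 processome and large subunit genes described below.
NOP14 sgRNA 2: ctctaacaggATGAAGACGG
MPHOSPH10 sgRNA 1: tggaagatatCATTAAACAG
NOC3L sgRNA 1: tggtataatcCCACAGACTA

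Before the gate, sgRNAs of the nucleolar factors were scarce. Their median was 56 unsorted reads (interquartile range 24.5 to 126.5), beside 103 (50 to 195) over all listed sgRNAs. The cytosolic ribosomal proteins, a set of 87 genes with 277 sgRNAs that dividing cells also need, had a median of 42. The olfactory receptors, a set of 374 genes with 1457 sgRNAs that a sarcoma line is not known to use, had a median of 111. Fewer than 30 unsorted reads were counted for 52 of the 167 sgRNAs (31.1%), against 13.9% of all listed sgRNAs, 39.7% of those to ribosomal proteins and 16.9% of those to olfactory receptors. The library of delivered plasmids was not analysed here, so these are levels and not changes, and whether they follow from loss of cells or from the delivered pool was not tested.

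**Figure D1:**
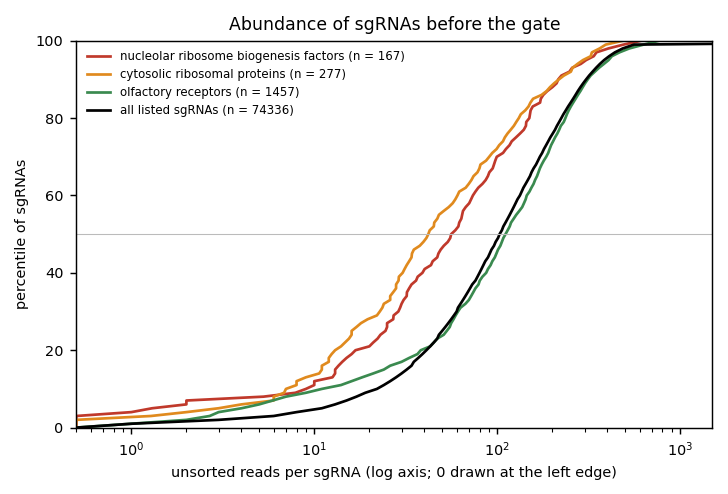
Cumulative distribution of unsorted reads per sgRNA, with reads on a log axis and the percentile of sgRNAs on the vertical axis, for the nucleolar factors, cytosolic ribosomal proteins, olfactory receptors and all listed sgRNAs. The curves of the nucleolar factors (median 56) and ribosomal proteins (median 42) lie to the left of those of the olfactory receptors (median 111) and of all sgRNAs (median 103) over most of their length.

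Fewer sgRNAs were also listed per gene. The table lists only sgRNAs with at least 1 read in either library, and Brunello holds mostly 4 per gene. All 4 were listed for 31 of the 47 genes (66.0%), against 90.2% of all genes. Only 2 were listed for each of 5 genes, namely FBL, NOP58, IMP3, NOL10 and UTP6, and 3 for each of 11 genes. Fewer than 4 were listed for 34.0% of the nucleolar factors, 58.6% of the ribosomal proteins and 9.63% of the olfactory receptors. The snoRNP proteins differed among themselves, since all 3 box C/D genes were short of sgRNAs and none of the 4 box H/ACA genes was. Among the small subunit processome genes, 9 of 23 (39.1%) had fewer than 4 listed.

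The level before the gate varied with role and within each gene. The median was 32 unsorted reads for the box C/D core, 81 for the box H/ACA core, 53.5 for the small subunit processome (23 genes, 80 sgRNAs), 28.5 for late small subunit steps (4 genes, 16 sgRNAs), 47.5 for the PeBoW complex and 97 for large subunit assembly and rRNA modification (9 genes, 34 sgRNAs). Only 11 of the 47 genes (23.4%) had a gene median above 103, against 51.8% of all genes. A gene median below 30 was found for 7 genes (14.9%, against 5.16% of all), namely FBL, NOP14, RRP9, UTP3, RRP12, BOP1 and NOP2. The highest single count was 612 unsorted reads for an sgRNA of RRP1B. Within a gene the most abundant sgRNA had a median of 6.0 times the reads of the least abundant, over 47 genes, counting only sgRNAs with unsorted reads.

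**Figure D2:**
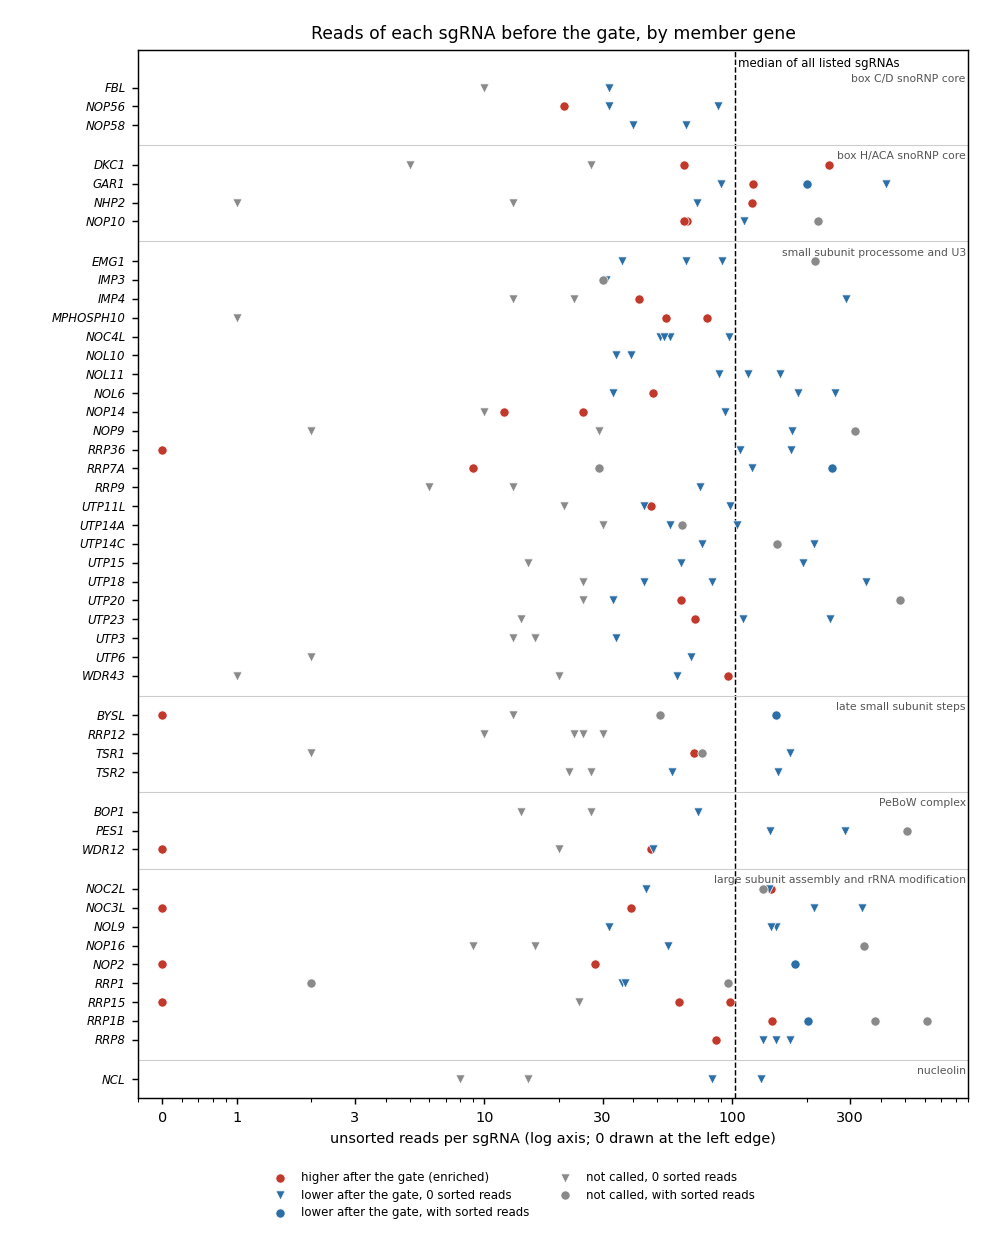
Unsorted reads (log axis, 0 drawn at the left edge) of each of the 167 sgRNAs, with 1 row per gene and genes grouped by role. Colour gives the call after the gate, triangles mark 0 sorted reads, and the dashed line is the median of all listed sgRNAs (103). Most points lie to the left of the line, and the 6 points at the left edge, listed only through their sorted reads, belong to RRP36, BYSL, WDR12, NOC3L, NOP2 and RRP15.

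After the gate, most sgRNAs of the nucleolar factors had no read. The unsorted library was 7.20 times deeper, so an sgRNA that keeps its share gives 1 sorted read for about 7.20 unsorted reads. The sorted cells were also expanded, and absence through the gate, the expansion or the sampling of reads cannot be told apart. No sorted read was counted for 112 of 167 sgRNAs (67.1%, 95% Wilson interval 59.6 to 73.7), against 57.6% of all listed sgRNAs, 70.8% for ribosomal proteins and 57.8% for olfactory receptors. PCR reads that carry no molecular identifier cannot be taken as independent molecules, and so this and all other intervals and floors cover counting error only. Within bands of unsorted reads the difference was uneven. With 30 to 99 unsorted reads the share was 66.2% of 65 sgRNAs (54.0 to 76.5), beside 65.5% of all other sgRNAs in that band. With 100 or more it was 60.0% of 50 (46.2 to 72.4), beside 47.0%, which lies within the interval. With 10 to 29 it was 85.3% of 34 (69.9 to 93.6), beside 76.3%, and with 0 to 9 it was 55.6% of 18 (33.7 to 75.4), beside 78.2%. The lowest band holds the 6 sgRNAs that were read only after the gate, and 224 such sgRNAs among the 3359 others. These are listed only through their sorted reads and could not count as unread, so the comparison in this band is no result. The highest band has no upper limit, and abundance can differ within it. The upper quartile was 126.5 unsorted reads over all sgRNAs of the nucleolar factors, beside 195 over all listed sgRNAs. The part of this in the difference was not tested.

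**Figure D3:**
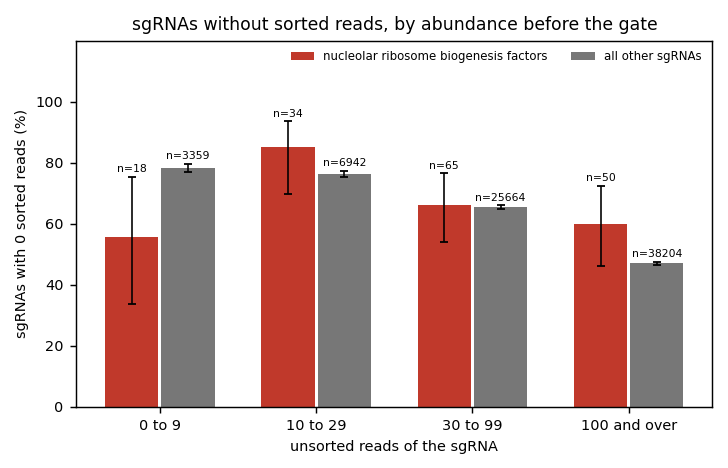
Percentage of sgRNAs with 0 sorted reads (vertical axis from 0) in 4 bands of unsorted reads, for the nucleolar factors and for all other sgRNAs, with 95% Wilson intervals as error bars and the number of sgRNAs above each bar. The 2 groups stand at 66.2% and 65.5% between 30 and 99 unsorted reads, and at 60.0% and 47.0% from 100 reads on.

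Fisher's exact test (two-sided) compared each sgRNA between the libraries, adjusted by Benjamini-Hochberg over all 74336 sgRNAs. With an adjusted p under 0.05, an sgRNA was called enriched where the odds ratio reached 2 or more, and lower where it was 0.5 or less. The test compares these 2 libraries and not the conditions, and sgRNAs of a gene share a target and are not replicates. Enrichment was called for 33 of 167 sgRNAs (19.8%), close to the background of 20.8% over all listed sgRNAs. The 33 include the 6 sgRNAs with 0 unsorted reads, which are in the table only through their sorted reads and so could only come out higher. Without sgRNAs of that kind 27 of 161 (16.8%) were enriched, beside 20.6%. Of the 115 with at least 30 unsorted reads, 22 (19.1%) were enriched, beside a background of 21.4%. Lower calls numbered 76 (45.5%), beside 51.7% of all, and all 76 were among the 115 with at least 30 unsorted reads (66.1%, beside 60.0%). An sgRNA without sorted reads needed 31 unsorted reads to be called lower, and 41 of the 112 had fewer. At least 2 enriched sgRNAs were found for 8 of 47 genes (17.0%), beside 18.8% of all genes, and for 5 of 47 (beside 18.3%) without sgRNAs at 0 unsorted reads. The shares of enriched sgRNAs lie near or slightly below the background, as does the share of genes with at least 2. Without sgRNAs at 0 unsorted reads the share of genes falls further below it. The nucleolar factors had fewer sgRNAs listed per gene, and the part of this was not tested. These counts give no result about the nucleolar factors as a group. Under a negative binomial test, which took its spread from the olfactory receptor sgRNAs, the 6 sgRNAs with 0 unsorted reads were the only ones of the 167 called. So no sgRNA that was read before the gate was enriched or lower, and no gene had 2. Over the whole table this test called 0.41% of sgRNAs enriched and 0.0% lower. The lack of lower calls is therefore no result about the nucleolar factors. With at least 30 unsorted reads per sgRNA, 4 of the 8 genes remained, namely DKC1, MPHOSPH10, NOP10 and RRP15. These are 4 of 47 genes, beside 15.4% over the whole table.

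The enriched sgRNAs belonged to 24 genes, and in 22 of these (91.7%) another sgRNA had no sorted read, beside 93.1% of all genes with an enriched sgRNA. The 8 genes with at least 2 enriched sgRNAs were DKC1, NOP10, MPHOSPH10, NOP14, WDR12, NOC3L, NOP2 and RRP15. RRP15 had 3, of which 1 had 0 unsorted reads, the others had 2, and no gene had 4. Sorted reads came from 1 sgRNA alone in 16 of the 32 genes with any (50.0%), against 37.0% of the 16316 such genes in the table, which had more sgRNAs listed. Among sgRNAs with sorted reads, the median log2 ratio of library shares was 1.57, against 1.01 over all listed sgRNAs (1.32 against 0.99 without those at 0 unsorted reads). With at least 30 unsorted reads the difference was smaller, at 1.09 against 0.90. This median leaves out unread sgRNAs, and an sgRNA with few unsorted reads that is read after the gate tends to a high ratio. With the unread sgRNAs included it was −2.71 against −2.82. Summed over all 167 sgRNAs, the nucleolar factors took 0.146% of unsorted and 0.166% of sorted reads, a ratio of 1.13, and without the 6 at 0 unsorted reads they took 0.153% of sorted reads.

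The box H/ACA core gave the highest share of enriched sgRNAs of any role, 6 of 16 (37.5%, beside the background of 20.8%). The roles are small and were not compared by a test, and none of these 6 sgRNAs was called by the negative binomial test. Dyskerin, encoded by DKC1, is the pseudouridine synthase of these particles, and NHP2, NOP10 and GAR1 are its partners. All 4 proteins also belong to the telomerase ribonucleoprotein. DKC1 sgRNA 1 had 64 reads before and 60 after the gate, and its odds ratio was 6.75, with an exact 95% interval of 4.67 to 9.76 (Fisher's exact test, adjusted p = 7.72e-22). DKC1 sgRNA 4 went from 246 to 77 reads, an odds ratio of 2.25 (1.72 to 2.92). DKC1 sgRNAs 2 and 3 had 5 and 27 unsorted reads and none after the gate, too few for a lower call. Thus both DKC1 sgRNAs with more than 30 unsorted reads rose.

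NOP10 had 66 unsorted and 38 sorted reads for sgRNA 1 (odds ratio 4.15, interval 2.71 to 6.27) and 64 and 73 for sgRNA 4 (8.22, 5.79 to 11.7; adjusted p = 1.15e-29, Fisher's exact test). NOP10 sgRNA 2, with 223 and 59 reads, had an odds ratio of 1.91 (1.41 to 2.55) and missed the threshold of 2. NOP10 sgRNA 3 had 112 unsorted reads and 0 sorted reads, and was called lower. NOP10 therefore had sgRNAs called in both directions.

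NHP2 sgRNA 2 went from 120 to 101 reads, an odds ratio of 6.06 (4.61 to 7.97; adjusted p = 2.52e-33, Fisher's exact test). NHP2 sgRNAs 1, 3 and 4 had 72, 1 and 13 unsorted reads and no sorted read. GAR1 sgRNA 4 went from 122 to 35 reads, an odds ratio of 2.07 (1.38 to 3.03), while sgRNAs 1, 2 and 3 fell from 200, 418 and 90 reads to 2, 0 and 0. GAR1 sgRNA 2 was at least 19.3-fold lower when the sorted count of 0 is set to a floor of 3 reads, the largest such drop among the nucleolar factors. In NHP2 and GAR1, then, 1 sgRNA of 4 was enriched and the best covered of the rest fell.

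The box C/D core differed in its counts. Fibrillarin, encoded by FBL, is the methyltransferase of these particles, and NOP56 and NOP58 are its scaffold proteins. FBL had 32 and 10 unsorted reads for its 2 sgRNAs, and NOP58 had 40 and 65, all 4 with 0 sorted reads. NOP56 sgRNA 2 went from 21 to 48 reads, an odds ratio of 16.5 (9.67 to 28.9; adjusted p = 5.14e-27, Fisher's exact test), while sgRNAs 1 and 3, with 88 and 32 unsorted reads, had none. With 6 of 7 sgRNAs unread after the gate in the box C/D core and 8 of 16 in the box H/ACA core, the 95% Wilson intervals of the shares (48.7 to 97.4 and 28.0 to 72.0) overlap.

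**Figure D4:**
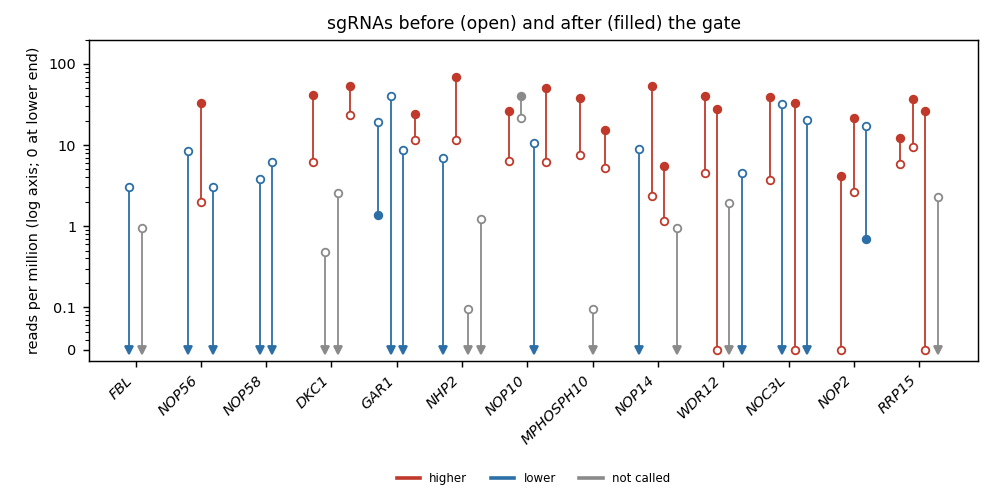
Reads per 1000000 (log axis, 0 drawn at the lower end) before the gate (open symbols) and after it (filled symbols, triangles for 0 sorted reads) for each sgRNA of the snoRNP cores and of the genes with at least 2 enriched sgRNAs. Lines join the 2 values of an sgRNA and are coloured by the call. Enriched and unread sgRNAs stand side by side in all these genes except FBL and NOP58, which have no enriched sgRNA, and NOP2, whose sgRNA 3 kept 1 sorted read.

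In the small subunit processome, 60 of 80 sgRNAs had no sorted read (75.0%, 64.5 to 83.2, beside 57.6%) and 12 were enriched (15.0%, beside 20.8%). These sgRNAs had a median of 53.5 unsorted reads, beside 103 over all, and the part of this in the unread share was not tested. MPHOSPH10, IMP3 and IMP4 form a complex that binds U3. MPHOSPH10 sgRNA 1 went from 79 to 55 reads, an odds ratio of 5.02 (3.49 to 7.17; adjusted p = 3.12e-16, Fisher's exact test), and sgRNA 3 from 54 to 22 (2.93, 1.70 to 4.90). Its sgRNA 2 had 1 unsorted read and 0 sorted reads. IMP4 had 1 enriched sgRNA, with 42 and 17 reads (2.92, 1.56 to 5.23), and 3 unread ones with 13, 290 and 23 unsorted reads. IMP3 had 31 unsorted reads and 0 sorted reads for sgRNA 1 and 30 and 8 for sgRNA 2, whose odds ratio of 1.92 (0.761 to 4.29) was not called.

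NOP14, EMG1 and NOC4L act together in the processome, and EMG1 is a methyltransferase of 18S rRNA. NOP14 sgRNA 2 went from 25 to 78 reads, an odds ratio of 22.5 (14.2 to 36.8; adjusted p = 9.48e-48, Fisher's exact test). NOP14 sgRNA 3 went from 12 to 8 reads (4.80, 1.70 to 12.8), and sgRNAs 1 and 4, with 94 and 10 unsorted reads, were not read after the gate. Its 2 enriched sgRNAs thus both started below 30 reads. EMG1 had 216 and 37 reads for sgRNA 3 (1.23, 0.846 to 1.75; not called), and 91, 36 and 65 unsorted reads with 0 sorted reads for the others. NOC4L had 97, 56, 51 and 53 unsorted reads and 0 sorted reads for all 4. It was the only one of 9 nucleolar factors with 4 sgRNAs of at least 30 unsorted reads to lack sorted reads altogether, and 8.94% of the 10557 such genes in the table did so.

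The largest finite odds ratio of the nucleolar factors was 34.4 (16.5 to 80.3), for an sgRNA of RRP7A that went from 9 to 43 reads. Another sgRNA of RRP7A fell from 254 to 14 reads. RRP7A thus had calls in both directions.

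Late small subunit factors carry the pre-40S particle towards export. In these 4 genes 2 of 16 sgRNAs were enriched (12.5%, beside 20.8%), 1 of them with 0 unsorted reads, and 11 had no sorted read (68.8%, beside 57.6%). TSR1 had an enriched sgRNA with 70 and 39 reads (4.01, 2.64 to 6.02), an uncalled one with 76 and 12, and unread ones with 172 and 2 unsorted reads. TSR2, a chaperone for a small subunit protein, had 27, 22, 154 and 57 unsorted reads and no sorted read. BYSL, or bystin, had 0 unsorted and 30 sorted reads for sgRNA 1, while its other sgRNAs had 13, 151 and 51 unsorted and 0, 5 and 10 sorted reads. The sgRNA with 151 and 5 reads was called lower (0.239, 0.0763 to 0.569), and BYSL sgRNA 1 is listed only through its sorted reads.

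The PeBoW complex of PES1, BOP1 and WDR12 is needed to process the 28S and 5.8S rRNA precursor. WDR12 sgRNA 1 went from 47 to 59 reads, an odds ratio of 9.04 (6.06 to 13.6; adjusted p = 1.71e-25, Fisher's exact test). WDR12 sgRNA 2 had 0 unsorted and 41 sorted reads, and sgRNAs 3 and 4 had 20 and 48 unsorted reads and none after the gate. PES1 sgRNAs had 286, 143 and 511 unsorted reads, and the third kept 138 sorted reads, an odds ratio of 1.95 (1.60 to 2.35) just under the threshold. BOP1 had 27, 73 and 14 unsorted reads and no sorted read. In the complex as a whole 2 of 10 sgRNAs were enriched (20.0%, beside 20.8%), both of WDR12 and 1 of them with 0 unsorted reads.

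Large subunit assembly and rRNA modification held 10 enriched sgRNAs of 34 (29.4%, beside 20.8%), of which 3 had 0 unsorted reads. With at least 30 unsorted reads 6 of 26 were enriched (23.1%, beside 21.4%). Of the 34, 16 were without sorted reads (47.1%, 31.5 to 63.3, beside 57.6%). The 3 with 0 unsorted reads are listed only through their sorted reads and could not be among these 16. Without sgRNAs of that kind it was 16 of 31, beside 57.8% of all listed sgRNAs. NOC3L pairs with NOC2L on large subunit precursors. NOC3L sgRNA 1 went from 39 to 57 reads, an odds ratio of 10.5 (6.88 to 16.3; adjusted p = 1.31e-26, Fisher's exact test), and sgRNA 3 had 0 unsorted and 48 sorted reads. NOC3L sgRNAs 2 and 4 had 334 and 215 unsorted reads and none after the gate, at least 15.5-fold and 9.95-fold lower against the floor of 3 reads. The 2 sgRNAs of NOC3L with the most unsorted reads were thus the 2 without sorted reads.

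RRP15, a large subunit assembly factor, had 61 and 18 reads for sgRNA 1 (2.13, 1.18 to 3.64), 98 and 54 for sgRNA 2 (3.97, 2.79 to 5.59), 0 and 38 for sgRNA 3, and 24 and 0 for sgRNA 4. NOP2, a methyltransferase of 28S rRNA, had 0 and 6 reads for sgRNA 1, 28 and 31 for sgRNA 2 (7.98, 4.63 to 13.8), and 180 and 1 for sgRNA 3 (0.0400, 0.00101 to 0.226). Without the sgRNAs at 0 unsorted reads, RRP15 had 2 enriched sgRNAs, as DKC1, NOP10, MPHOSPH10 and NOP14 did, and NOP2 had 1 sgRNA called in each direction. Nucleolin, encoded by NCL, an abundant RNA-binding protein of the nucleolus, had 131, 15, 8 and 83 unsorted reads and no sorted read.

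Some sgRNAs were read only in the sorted library. Of the 167 sgRNAs, 6 (3.59%) had 0 unsorted reads, against 224 of the other sgRNAs (0.302%). The share was 2.53% for ribosomal proteins and 0.206% for olfactory receptors. Since an sgRNA unread in both libraries is not listed, each of them had to have sorted reads, and their direction is fixed by the listing and is no result. The sorted reads were 31 for RRP36, 30 for BYSL, 41 for WDR12, 48 for NOC3L, 6 for NOP2 and 38 for RRP15. Over the whole table the 230 sgRNAs of this kind fell in 229 genes and had a median of 30.5 sorted reads. WDR12, NOC3L and NOP2 each had 1 other enriched sgRNA and RRP15 had 2 others.

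The opposite extreme, a gene with no sorted read at all, held for 15 of the 47 (31.9%), against 14.6% of all genes, 36.8% of ribosomal protein genes and 15.8% of olfactory receptor genes. They were FBL, NOP58, NOC4L, NOL10, NOL11, RRP9, UTP15, UTP18, UTP3, UTP6, RRP12, TSR2, BOP1, NOL9 and NCL. Their 47 sgRNAs had 2 to 348 unsorted reads. The nucleolar factors have fewer listed sgRNAs and fewer reads per sgRNA than most genes, and the part of either in this share was not tested. Enrichment was absent but some sorted reads remained for 8 further genes, EMG1, IMP3, NOP9, UTP14A, UTP14C, PES1, NOP16 and RRP1.

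Properties of the sgRNA sequences were compared with these counts. The median GC content was 50% for the 167 sgRNAs and for all listed sgRNAs. Unsorted reads were nearly unrelated to GC content across the sgRNAs, with a Spearman rho of −0.0107 over 167 and −0.0313 over 74336. With a GC content of 60% or more, 34 of 42 sgRNAs of the nucleolar factors had no sorted read (81.0%, beside 58.7% of all such sgRNAs). With 40% to under 60% it was 63 of 104 (60.6%, beside 57.1%), and below 40% it was 15 of 21 (71.4%, beside 58.2%). A listed sgRNA of another gene lay within 3 mismatches, the tolerance of the mapping, for 3 of the 167 (1.80%), against 3.05% of all listed sgRNAs. These were NHP2 sgRNA 3, MPHOSPH10 sgRNA 2 and an sgRNA of RRP1, with 1, 1 and 2 unsorted reads. The 2270 sgRNAs of this kind in the whole table had a median of 6.0 unsorted reads, where only reads that match a single listed sgRNA are counted.

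Other genes of the same pathway were counted in the same way. A further 4 lists, of 83 genes and 309 sgRNAs, covered other small subunit processome factors, other large subunit factors, RNA polymerase I and the RNA exosome. Their median was 52 unsorted reads, 68.0% of the sgRNAs had no sorted read, 55 (17.8%, beside 20.8%) were enriched and 137 (44.3%, beside 51.7%) were lower. At least 2 enriched sgRNAs were found for 11 of the 83 genes (13.3%, beside 18.8%), and 24 genes (28.9%) had no sorted read.

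Among the other processome genes, 20 of 99 sgRNAs were enriched (20.2%, beside 20.8%) and 45 were lower (45.5%, beside 51.7%). Of the 99, 1 had 0 unsorted reads. BMS1, DIMT1, FCF1, NAT10 and RIOK2 had at least 2 enriched. RIOK2, an atypical kinase of pre-40S particles, had 3 of 4, with 284 unsorted and 119 sorted reads in all. Among the other large subunit genes, 13 of 102 were enriched (12.7%, beside 20.8%) and 44 were lower (43.1%, beside 51.7%). RBM28 had 3 enriched, with 340 unsorted and 112 sorted reads in all, and SPATA5 had 2. No sorted read was counted for 10 of 28 genes (35.7%, beside 14.6% of all genes), among them BRIX1 with 257 unsorted reads. RNA polymerase I genes had 8 of 57 enriched (14.0%, beside 20.8%) and 33 lower (57.9%, beside 51.7%). TAF1A, a subunit of the promoter selectivity factor SL1, had 3 enriched, with 208 unsorted and 154 sorted reads in all, while POLR1A, the largest subunit of the polymerase, had 169 unsorted reads and none after the gate. RNA exosome genes had 14 of 51 enriched (27.5%, beside 20.8%) and 15 lower (29.4%, beside 51.7%). Of the 51, 2 had 0 unsorted reads and were listed only through their sorted reads. With at least 30 unsorted reads 11 of 34 were enriched (32.4%, beside 21.4%). EXOSC10, a nuclear exonuclease of the exosome, had 3 enriched and sorted reads for all 4 sgRNAs, with 91 unsorted and 109 sorted reads in all. Its lowest unsorted count was 0, and for that sgRNA the presence of sorted reads was fixed by the listing.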

How the data were processed

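From each population, 20 μg of genomic DNA was amplified in 24 reactions of 20 cycles, then 15 more, and sequenced on a MiSeq. The authors mapped reads to the Brunello sgRNAs with Bowtie 1.2.2, allowing 3 mismatches and keeping reads with a single match, and deposited raw counts per sgRNA with library totals. The deposited odds ratio and p-value columns hold the authors' own comparison and were not used. No genome build is named, so no coordinates are given.

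The 3 repeated entries were dropped. RefSeq annotation (GRCh38.p14), consulted for names only, held the accessions of all 47 genes (UTP11L is now UTP11). Fisher's exact test was run per sgRNA on the counts over the whole table. Log2 ratios used library shares with a pseudocount of 0.5. No count model with replicate spread could be fitted to 1 library per group. The test was checked on simulated Poisson counts with known changes. These had no spread beyond counting, so the check does not tell how often calls in the real libraries are wrong.

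Members, role lists and pathway lists were chosen with earlier results of these data known. Genes were named where at least 2 sgRNAs were enriched, where 4 sgRNAs of at least 30 unsorted reads all lacked sorted reads, or as core members (the snoRNP and PeBoW proteins, NCL, IMP3, IMP4, MPHOSPH10, TSR1, TSR2, BYSL and EMG1), others only for an extreme value. Alternatives were another odds ratio threshold, a minimum of 30 unsorted reads, Bonferroni adjustment, scaling on olfactory receptor sgRNAs, a negative binomial test, a pseudocount of 5, inclusion of unread sgRNAs in the median, and removal of sgRNAs with a near neighbour. Removal of sgRNAs at 0 unsorted reads was added after seeing the data. Analyses were run in Python 3.11.15 with scipy 1.17.1, numpy 2.4.6 and pandas 2.3.3, and plots were drawn in matplotlib 3.10.9. The sequence of 1 sgRNA is not reported here.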

Additional observations from a re-analysis of the deposited data

How the results depend on the processing

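No paired analysis was possible because each population has 1 library, so replicate spread is unknown and no difference has a replicate check. Of 33 recomputed values of the main counts and medians, 24 were classed as the same, 8 as moved and 1 as reversed. Values classed as the same could still shift. Enriched sgRNAs went from 33 to 40 with an odds ratio above 1 (beside 25.5% of all) and to 25 with Bonferroni adjustment (beside 17.0%). The median log2 ratio went from 1.57 to 1.09 with at least 30 unsorted reads. With at least 30 unsorted reads per sgRNA, 4 genes instead of 8 had at least 2 enriched sgRNAs (DKC1, MPHOSPH10, NOP10 and RRP15), beside 15.4% over the whole table. The median was then 90 unsorted reads, beside 123. With Bonferroni adjustment 5 of 47 genes (DKC1, NOC3L, NOP10, RRP15 and WDR12) had at least 2 enriched, beside 13.2% of all genes. Lower calls then numbered 28 of 167 sgRNAs, beside 23.5% of all listed sgRNAs. Without the sgRNAs at 0 unsorted reads, an alternative chosen after seeing the data, 5 genes remained (DKC1, MPHOSPH10, NOP10, NOP14 and RRP15), beside 18.3% of all genes. With the spread of the olfactory receptor sgRNAs (dispersion 8.63), a negative binomial test called 6 sgRNAs enriched, beside 0.41% of all listed sgRNAs. They were those listed with 0 unsorted reads, and so only through their sorted reads, in RRP36, BYSL, WDR12, NOC3L, NOP2 and RRP15. It called 0 lower and 0 genes with at least 2, beside 0.0% and 0.0105% over the whole table. Fisher's exact test called 33 enriched, 76 lower and 8 genes. With unread sgRNAs included, the median log2 ratio turned from 1.57 to −2.71, since 67.1% had no sorted read. Of 322 recomputed values of named genes, 257 stayed the same, 65 moved and 0 reversed. Depth limits lower calls: an sgRNA with 30 or fewer unsorted reads could not be called lower.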
